A study of Mus musculus with 10 samples.

Results

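The thin filament of heart muscle was described here by 9 genes, Actc1, Acta1, Tnnt1, Tnnt2, Tnni1, Tnni3, Tnnc1, Tpm1 and Tpm2, measured in whole hearts of female mouse embryos. The members were every probe set of the deposited table whose platform annotation names exactly 1 gene and that gene is one of these, which gave 17 probe sets of 45101 on each array. Each gene is represented by its probe set with the highest mean over the arrays, so the 9 genes stand among 18193 measured genes. The hearts were taken at 13.5 days post coitum. There were 5 arrays from littermate controls and 5 from embryos carrying a heterozygous heart-conditional knockout of Hccs, and each array held RNA of 4 to 5 pooled hearts of 1 genotype, so that p-values measure the spread between pools. Hccs, an X-linked gene, encodes holocytochrome c synthase, the mitochondrial enzyme that couples haem to c-type cytochromes. Because each female cell inactivates an X chromosome, these hearts are mosaics of cells with and without the enzyme. The Cre driver of the knockout and the exact alleles of the control littermates are not given in the sources used here.

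Thin filaments are built from actin, on which tropomyosin lies in a continuous strand and a troponin complex sits at regular intervals. Troponin C binds calcium, troponin I holds the filament in its blocked state, and troponin T anchors the complex to tropomyosin. When calcium rises, tropomyosin shifts and myosin can bind actin. Several of these proteins come from gene families whose members replace each other during heart development. Skeletal actin (Acta1), slow skeletal troponin I (Tnni1), slow skeletal troponin T (Tnnt1) and beta-tropomyosin (Tpm2) are treated here as fetal forms. Cardiac actin (Actc1), cardiac troponin I (Tnni3), cardiac troponin T (Tnnt2) and alpha-tropomyosin (Tpm1) are treated as mature forms, and troponin C (Tnnc1) has no partner among the members. All 4 mature forms are also transcribed in the embryonic heart.

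Promoter sequences are shown for the 4 members whose 250 bases upstream of the RefSeq start site lie wholly outside the annotated gene. These include 2 of the 3 genes that passed the test described below. All 9 members matched the RefSeq promoter table of assembly GRCm38.p6. Tnnc1 lies on the plus strand (chr14:31208062-31208311). Tnnt1 (chr7:4515976-4516225), Acta1 (chr8:123894776-123895025) and Actc1 (chr2:114052876-114053125) lie on the minus strand. Capitals mark matches, on either strand, to the CArG box bound by SRF, the MEF2 box, CATTCC (the core of the element bound by TEAD factors) and TATAAA. A MEF2 box can contain TATAAA, but no matches overlap in these sequences, which read 5′ to 3′ along the gene.
Tnnc1: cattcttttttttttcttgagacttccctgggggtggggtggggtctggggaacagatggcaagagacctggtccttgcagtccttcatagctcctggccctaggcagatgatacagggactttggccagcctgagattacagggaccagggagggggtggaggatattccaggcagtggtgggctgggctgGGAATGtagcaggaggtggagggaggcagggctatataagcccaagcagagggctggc
Tnnt1: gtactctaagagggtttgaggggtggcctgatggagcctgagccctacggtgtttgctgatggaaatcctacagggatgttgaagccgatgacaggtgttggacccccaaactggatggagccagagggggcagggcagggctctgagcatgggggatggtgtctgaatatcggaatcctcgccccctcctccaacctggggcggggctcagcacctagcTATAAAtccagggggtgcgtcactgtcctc
Acta1: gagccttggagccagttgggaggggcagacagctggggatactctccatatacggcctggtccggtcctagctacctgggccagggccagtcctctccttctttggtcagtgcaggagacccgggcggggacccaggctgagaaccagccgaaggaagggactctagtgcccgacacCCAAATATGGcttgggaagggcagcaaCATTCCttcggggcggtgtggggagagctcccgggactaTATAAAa
Actc1: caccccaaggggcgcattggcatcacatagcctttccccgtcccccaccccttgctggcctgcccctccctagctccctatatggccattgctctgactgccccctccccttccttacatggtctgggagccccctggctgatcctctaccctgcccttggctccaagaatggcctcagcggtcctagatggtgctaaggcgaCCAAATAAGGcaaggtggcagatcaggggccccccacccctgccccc
The CArG match lies 73 bases upstream of the start in Acta1 and 47 bases upstream in Actc1. Of 21006 promoter windows of protein-coding genes, each of 300 bases from 250 before to 50 after the start, 1.54% hold a CArG box, and 2 of the 9 members do. CATTCC was found in 4 members, among them Acta1 (46 bases upstream) and, on the opposite strand, Tnnc1 (58 bases upstream), against 13.5% of all windows. TATAAA was found in 3 members, in Actc1 only after the start, and in 12.5% of windows, and the MEF2 box in 0 members and in 2.71% of windows. These are letter matches only.

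The label check came first. Hccs signal was lower in every knockout array than in any control, with 10.68 ± 0.20 against 11.23 ± 0.08 (mean ± SD of 5 arrays, limma adjusted p = 0.0225). Values are log2 probe set signals, on which array medians lay between 3.65 and 3.76 and the highest value was 16.6. The thin filament genes lie near the top of this scale, Actc1 at 16.20 in controls, and whether such bright signals were compressed cannot be read from the values. Probe sets differ in how brightly they report, so levels of different genes are not compared. Of 41 measured markers of skeletal and smooth muscle, endothelium, epicardium, mesenchyme, blood, macrophages and neural cells, 0 passed limma's threshold. Over all genes, 0.945% passed it as lower and 1.63% as higher. An unadjusted limma p under 0.05 was found for 7 markers, 6 lower and 1 higher, against 20.6% of all genes. Of the 6 markers of endothelium and endocardium, 3 were among these, all lower, and the other 3 had positive changes that did not reach it. Array controls moved with genotype. The 3' control probe sets for Gapdh and beta-actin differed by -0.15 and -0.23 on the log2 scale, and neither overlapped between genotypes. The 5' probe set for 18S ribosomal RNA had 10.05 ± 1.25 in controls and 8.17 ± 0.35 in knockouts (exact permutation p = 0.0238, 0.0387 after Benjamini-Hochberg adjustment over 13 array measures, n = 5 each). The 3' minus 5' differences were also compared, those of the messenger RNAs of Gapdh and beta-actin being a sign of RNA integrity. That of 18S was -0.89 ± 0.43 in controls and 0.22 ± 0.54 in knockouts with no overlap (exact permutation p = 0.00794, adjusted 0.0206, n = 5 each), while those of Gapdh and beta-actin differed by -0.031 and -0.044 (exact permutation p = 0.0952 and 0.222, n = 5 each). The part of these measures in the results below was not tested.

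All 9 thin filament genes, each read by its brightest probe set, had a negative log2 change in the knockout hearts, and 3 of them passed the test: Tnnc1, Tnnt1 and Tnni1. For Tpm1 and Tpm2 the sign turned positive when all probe sets of a gene were averaged (0.046 and 0.021) and with the most variable one (0.34 and 0.23). The changes ran from -0.62 to -0.098, with a median of -0.21, where the median of all genes was 0.025 and 39.5% of genes had a negative change. An adjusted limma p under 0.05 in the lower direction was reached by 0.945% of all genes, and by 2.64% of the 1893 genes at least as bright as the dimmest member. No member was called higher, a call that 1.63% of all genes had. In 4 members, these 3 and Actc1, the knockout arrays lay wholly below the controls. They did so in 1.92% of all genes and in 107 of the 1893 bright genes. An unadjusted limma p under 0.05 in the lower direction was reached by 8 members, all but Tpm2, and by 7.48% of all genes, against 20.6% in either direction. Of the 1893 bright genes, 325 reached it in the lower direction. Of the 263 genes at least as bright as Tnni3, 167 had a negative change, and their median was -0.038. The 6 members in that class had a median of -0.20. Limma called 13 of the 263 lower, and 2 of these 6. Knockouts lay wholly below controls in 28 of the 263 and in 3 of these 6. An unadjusted limma p under 0.05 in the lower direction was reached by 66 of the 263 and by all 6. In RNA of whole hearts, fewer cardiomyocytes and less of a transcript per cardiomyocyte cannot be told apart.

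**Figure D1:**
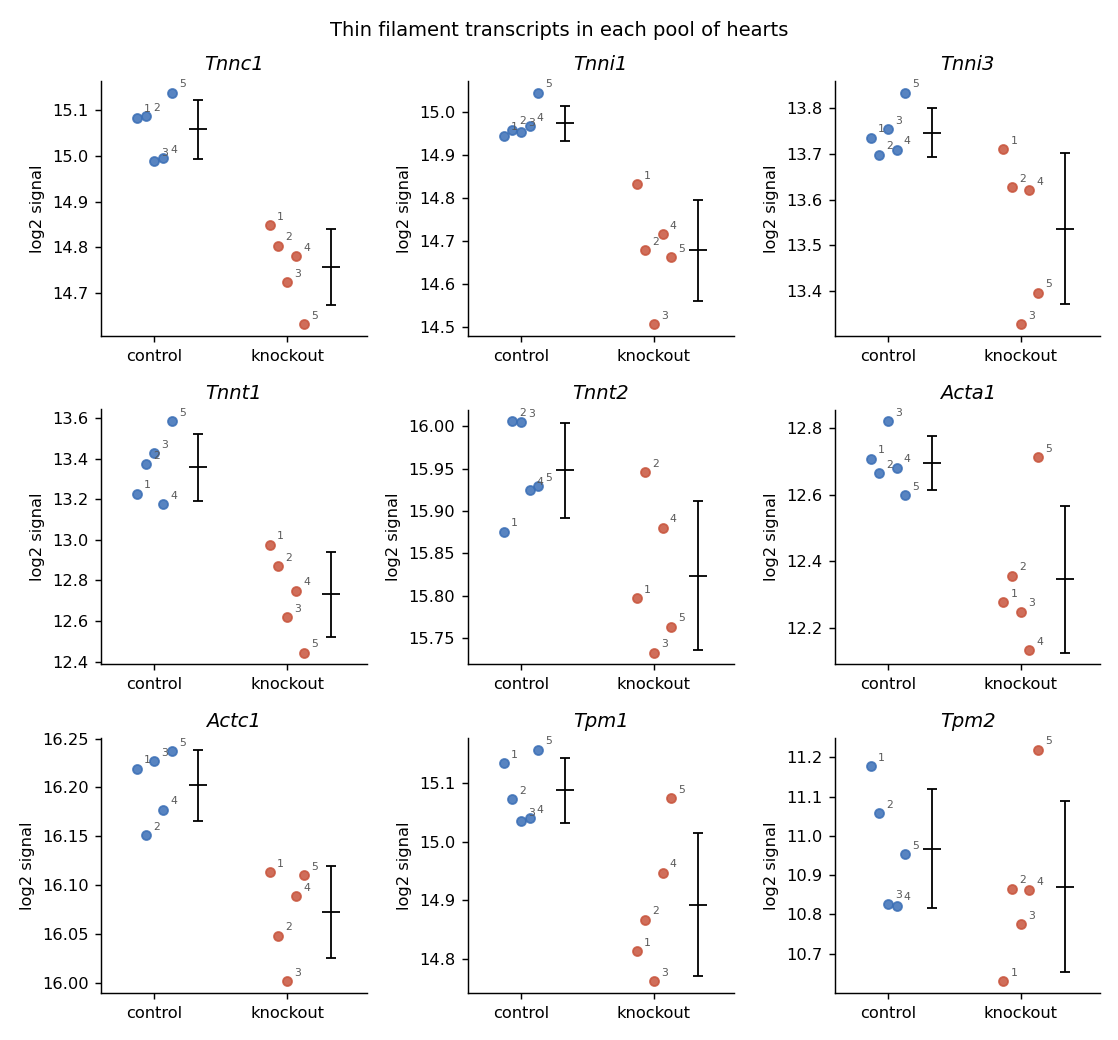
Log2 signal of each thin filament gene in every array (y axis, scale differs between panels); points are pools, numbered by replicate, and bars show the mean ± SD of 5 arrays. Knockout points lie wholly below the control points for Tnnc1, Tnni1, Tnnt1 and Actc1, and knockout replicate 5 lies in or above the control range for Acta1, Tpm1 and Tpm2.

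Tnnc1, the calcium-binding subunit of the troponin complex, was lower in the knockout hearts. Its log2 signals in control replicates 1 to 5 were 15.08, 15.09, 14.99, 15.00 and 15.14, and in knockout replicates 1 to 5 they were 14.85, 14.80, 14.72, 14.78 and 14.63. The highest knockout array thus lay below the lowest control. The log2 change was -0.30 (SE 0.049, limma adjusted p = 0.0221), so that the signal fell by 18.9%. The call was lost without control replicate 1, knockout replicate 3 or knockout replicate 4 (limma adjusted p = 0.0553, 0.0520 and 0.0524), with log2 changes of -0.30, -0.29 and -0.31.

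Tnni1, the slow skeletal troponin I that the embryonic heart uses as its inhibitory subunit, fell as well. Controls had 14.95, 14.96, 14.96, 14.97 and 15.05, and knockouts had 14.83, 14.68, 14.51, 14.72 and 14.66 (log2 signals, replicates 1 to 5). The controls were tightly grouped, and knockout replicate 1 was the nearest to them. The log2 change was -0.30 (SE 0.055, limma adjusted p = 0.0296), a signal lower by 18.6%. This call was the least stable of the 3. It was kept without knockout replicate 1 or 3 and lost in the other 8 fits with 1 array left out, where the limma adjusted p lay between 0.0501 (without control replicate 5) and 0.0667 (without knockout replicate 2). Quantile normalization and median centring also ended the call, with log2 changes of -0.25 and -0.28 and limma adjusted p of 0.0595 and 0.0600.

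Tnni3, the cardiac troponin I that replaces Tnni1 as the heart matures, differed by -0.21 on the log2 scale (SE 0.074), which missed the threshold (limma adjusted p = 0.158). Its control signals were 13.73, 13.70, 13.75, 13.71 and 13.83. The knockout signals were 13.71, 13.63, 13.33, 13.62 and 13.40. Knockout replicate 1 lay inside the control range, and replicates 3 and 5 lay below the other knockouts.

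Tnnt1, the slow skeletal troponin T, showed the largest change of the 9 genes. Control replicates had 13.23, 13.37, 13.42, 13.17 and 13.58, and knockout replicates had 12.97, 12.87, 12.62, 12.75 and 12.44 (log2 signals). All knockouts lay below all controls, and knockout replicate 5 was the lowest. The log2 change was -0.62 (SE 0.11, limma adjusted p = 0.0250), with the signal lower by 35.1%. The call was lost without control replicate 1, 2 or 3 (limma adjusted p = 0.0546, 0.0583 and 0.0602) and without knockout replicate 2, 3 or 4 (0.0524, 0.0598 and 0.0617). Leaving out the arrays numbered 3 of both genotypes together ended all 3 calls, with limma adjusted p of 0.122 for Tnnt1, 0.0905 for Tnni1 and 0.0869 for Tnnc1 and log2 changes of -0.58, -0.26 and -0.31.

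Slow skeletal troponin T is also a skeletal muscle transcript, so the skeletal muscle markers are given beside it. None of 9 passed, 6 had a negative change and their median was -0.43. Their mean level ran from 5.01 to 6.34 in controls and from 4.60 to 5.90 in knockouts. Myod1 and Pax7, which define the myogenic lineage, had means of 2.22 and 2.31 in controls, below the array medians. Myf5, a further factor of that lineage, had a control mean of 3.40. Myog, another, ranged from 3.41 to 7.02 in controls and from 3.38 to 5.03 in knockouts. Ckm, the muscle creatine kinase, which heart muscle also makes, had 11.55 ± 0.24 in controls and 10.39 ± 0.97 in knockouts (mean ± SD of 5 arrays), with no overlap (limma adjusted p = 0.156). Myh3, embryonic skeletal myosin, ranged from 6.30 to 10.84 in controls and from 4.86 to 9.06 in knockouts. Mylpf, a fast skeletal light chain, had means of 7.98 and 7.25. Myh3, Mylpf and Myog were each highest in control replicate 3 among controls and in knockout replicate 4 among knockouts. Knockout replicate 5 was the lowest of all arrays for Myh3, Ckm and Tnnt1, and control replicate 3 was the highest for Myh3 and the second-highest control for Tnnt1. Control replicate 5 was the lowest control for Myh3 and the highest for Tnnt1, and knockout replicate 4 was the highest knockout for Myh3 and the third-highest for Tnnt1. The part of skeletal muscle RNA in the Tnnt1 change was not tested.

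Tnnt2, the cardiac troponin T, did not pass with any of its 3 probe sets. The brightest had 15.88, 16.01, 16.00, 15.92 and 15.93 in controls and 15.80, 15.95, 15.73, 15.88 and 15.76 in knockouts. The groups overlap, and the difference was -0.12 (SE 0.048, limma adjusted p = 0.188). The second, of nearly the same brightness, had a log2 change of 0.019 (95% interval -0.12 to 0.16). The dimmest had control values from 8.12 to 10.20 and knockout values from 8.05 to 9.06, a spread that leaves its log2 change of -0.52 with an interval from -1.46 to 0.42.

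The genes of troponins T and I lie beside each other in the genome in unlike pairs. In the RefSeq table Tnnt1 and Tnni3 are neighbours on chromosome 7 with 0 protein-coding genes between them, and Tnni1 and Tnnt2 lie on chromosome 1 with 1 between them. Each neighbouring pair therefore holds a fetal and a mature form. The fetal gene passed the test and the mature gene did not in both pairs, with log2 changes of -0.62 (Tnnt1) beside -0.21 (Tnni3) and of -0.30 (Tnni1) beside -0.12 (Tnnt2). The differences within these neighbouring pairs were not tested.

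Of the actins, Actc1, the main actin of the cardiac sarcomere, had the tightest groups. Control signals were 16.22, 16.15, 16.23, 16.18 and 16.24, and knockout signals were 16.11, 16.05, 16.00, 16.09 and 16.11. The groups did not overlap, while the log2 change of -0.13 (SE 0.033) did not pass in limma (adjusted p = 0.0726). With array weights it did (limma adjusted p = 0.0448), and with quantile normalization the change was -0.072. Acta1, skeletal actin, had controls of 12.71, 12.66, 12.82, 12.68 and 12.60 and knockouts of 12.28, 12.36, 12.25, 12.13 and 12.71. The first 4 knockouts lay below all controls, and knockout replicate 5 lay among them. The log2 change was -0.35 (SE 0.098, limma adjusted p = 0.0943). Without knockout replicate 5 it was -0.44 and passed (limma adjusted p = 0.0207). The coding sequences of these actins are closely alike, and how far each probe set also binds the other transcript cannot be told apart here.

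The tropomyosins depended on the probe set. The brightest Tpm1 probe set had 15.13, 15.07, 15.04, 15.04 and 15.16 in controls and 14.81, 14.87, 14.76, 14.95 and 15.07 in knockouts, which differed by -0.20 on the log2 scale (SE 0.059, limma adjusted p = 0.113). Knockout replicate 5 alone reached the control range. The second-brightest and the third-brightest had positive log2 changes of 0.30 (95% interval 0.0083 to 0.59) and 0.34 (-0.0071 to 0.68), and the dimmest had -0.26 (-0.61 to 0.089). The second-brightest had control values from 10.52 to 11.12 and knockout values from 10.85 to 11.35. None of these 4 passed in limma over 34945 probe sets. Tpm1 makes many transcripts with different first, internal and last exons, and which of them each probe set detects was not analysed here.

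For Tpm2 the brightest probe set had 11.18, 11.06, 10.83, 10.82 and 10.95 in controls and 10.63, 10.87, 10.78, 10.86 and 11.22 in knockouts. Knockout replicate 5 was the highest of all 10 arrays and knockout replicate 1 the lowest. The log2 change of -0.098 had a 95% interval from -0.34 to 0.15. The other 3 probe sets had changes of 0.23, 0.23 and -0.27, from the second-brightest to the dimmest, none of which passed. When the mean of all probe sets stood for a gene, the changes of Tpm1 and Tpm2 turned to 0.046 and 0.021, so no direction can be given for either tropomyosin gene as a whole.

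**Figure D2:**
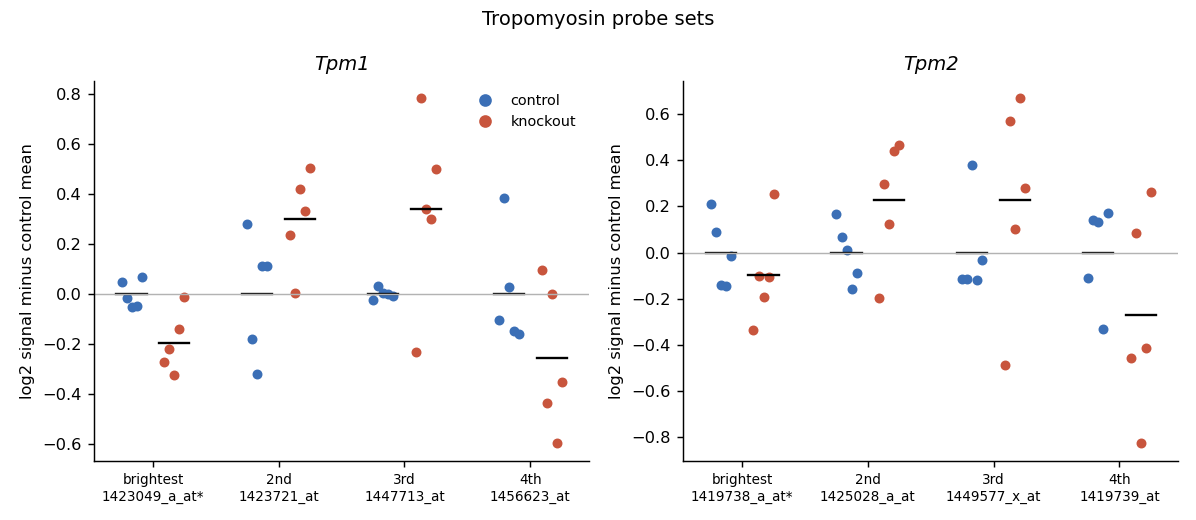
Log2 signal minus the control mean (y axis) for each probe set of Tpm1 and Tpm2, with 1 point per array and a line at each group mean; the asterisk marks the probe set that stands for the gene. The brightest probe set of Tpm1 lies lower in knockouts (-0.20), while the second-brightest and the third-brightest lie higher (0.30 and 0.34), and none passed the test.

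To see whether probe sets of 1 gene differ in their response, each further probe set of Tnnt2, Tpm1 and Tpm2 was set against the brightest one within each array, a comparison chosen after their values were seen. Of 8 such differences 4 had an exact permutation p under 0.05 and 0 kept it after Benjamini-Hochberg adjustment over the 8. The 4, each with an adjusted value of 0.0635, were the second-brightest of Tpm1 (difference in change 0.49, exact permutation p = 0.0159), the third-brightest of Tpm1 (0.53, exact permutation p = 0.0317), the second-brightest of Tpm2 (0.32, exact permutation p = 0.0159) and the second-brightest of Tnnt2 (0.14, exact permutation p = 0.0238). All 4 of these were upward relative to the brightest probe set, with n = 5 arrays each.

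**Figure D3:**
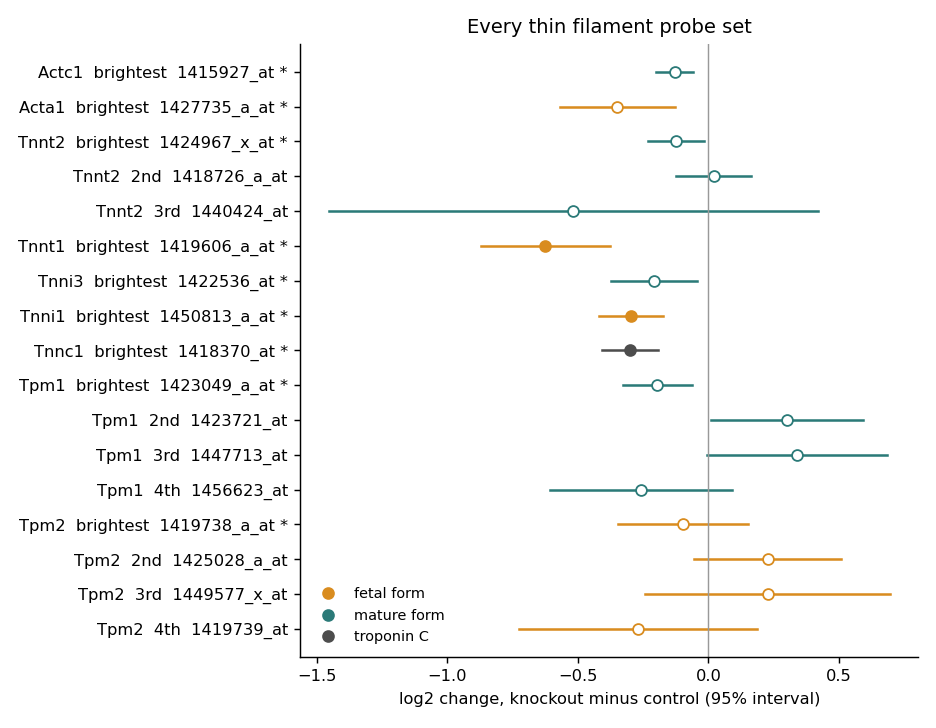
Log2 change, knockout minus control, of all 17 thin filament probe sets (x axis) with its 95% interval from limma; filled points passed an adjusted p of 0.05 and the asterisk marks the probe set that stands for a gene. Only those of Tnnt1, Tnni1 and Tnnc1 are filled, and 12 of the 17 lie below 0.

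Over all 17 probe sets, 12 had a negative and 5 a positive log2 change. The same 3 genes were called lower, each by its only probe set, against 0.481% of all probe sets, and 0 were called higher, against 1.23%. Without knockout replicate 1 the third-brightest Tpm1 probe set was called higher (0.48, limma adjusted p = 0.0242). The groups did not overlap in 4 probe sets, against 1.53% of all. The 5 positive ones were all further probe sets of Tnnt2, Tpm1 or Tpm2.

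The fetal and mature forms were then contrasted within each array, as mature minus fetal log2 signal. This cancels a shift only where both probe sets report it equally. In controls Tnnt2 (15.95), Actc1 (16.20) and Tpm1 (15.09) lay higher on the scale than Tnnt1 (13.36), Acta1 (12.69) and Tpm2 (10.97). Tnni3 (13.75) lay below Tnni1 (14.97). The part of compressed bright signals in these differences was not tested. The 4 fetal forms had a median change of -0.32 and the 4 mature forms of -0.16. The fetal form had the more negative change in 3 of 4 families, all but tropomyosin. These values rest on the brightest probe sets, and the signs of the Tpm1 and Tpm2 changes and of their difference depended on that choice. Only the troponin T pair passed. Its difference, Tnnt2 minus Tnnt1, went from 2.59 ± 0.15 in control hearts to 3.09 ± 0.18 in knockout hearts (mean ± SD of 5 arrays). All 5 knockout arrays, from 2.82 to 3.32, lay above the controls, which ran from 2.35 to 2.75. The increase of 0.50 (95% interval 0.26 to 0.74) had an exact permutation p of 0.00794, the smallest that 5 against 5 arrays allow, and of 0.0317 after Benjamini-Hochberg adjustment over the 4 pairs. With the other bright Tnnt2 probe set, a choice made after its values were seen, the increase was 0.64. With the dimmest and most variable Tnnt2 probe set it was 0.11 and did not pass (exact permutation, adjusted p = 0.817), and with the mean of the 3 Tnnt2 probe sets it was 0.42 (adjusted p = 0.106). It also lost its call when any 1 control array was left out, with an adjusted value of 0.0635 each time and an increase between 0.44 and 0.54, though the groups still did not overlap.

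The troponin I pair, Tnni3 minus Tnni1, had -1.23 ± 0.03 in controls and -1.14 ± 0.08 in knockouts. Its increase of 0.087 (95% interval -0.0088 to 0.16) did not pass (exact permutation p = 0.0714, adjusted 0.106, n = 5 each), and with quantile normalization it was 0.027. Of the knockouts, replicates 1 to 4 lay above every control, while replicate 5, at -1.27, lay just below the lowest control, at -1.26. The actin pair, Actc1 minus Acta1, had 3.51 ± 0.08 in controls and 3.73 ± 0.21 in knockouts, an increase of 0.22 (-0.023 to 0.44) that did not pass (exact permutation p = 0.0794, adjusted 0.106, n = 5 each). Here too replicates 1 to 4 lay above every control and replicate 5, at 3.40, just below the lowest control, at 3.41. Without knockout replicate 5 both pairs passed, with increases of 0.12 and 0.30 (exact permutation, adjusted p = 0.0106 each).

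The tropomyosin pair, Tpm1 minus Tpm2, had 4.12 ± 0.12 in controls and 4.02 ± 0.12 in knockouts. The difference of -0.098 (95% interval -0.28 to 0.099) did not pass (exact permutation p = 0.246, n = 5 each), its size was -0.024 with quantile normalization, and its sign depended on the probe sets used.

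**Figure D4:**
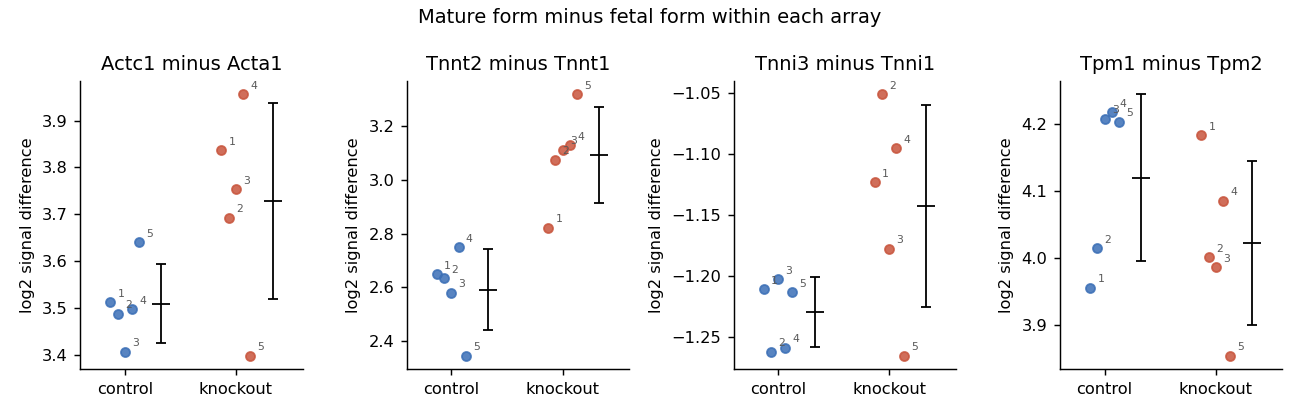
Mature minus fetal log2 signal within each array (y axis, scale differs between panels) for the 4 families; points are arrays numbered by replicate and bars show the mean ± SD of 5. The troponin T difference is higher in all 5 knockouts, whereas for the actin and troponin I pairs knockout replicate 5 lies at the bottom edge of the controls.

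The 5 knockout arrays did not share 1 pattern. In knockout replicate 3 all 9 members lay below every control, and it was the lowest knockout for 5 of them (Actc1, Tnnt2, Tnni3, Tnni1 and Tpm1). Knockout replicate 5 was the lowest for Tnnt1 and Tnnc1, at -0.91 and -0.43 relative to the control mean. The same array was within 0.02 of the control mean for Acta1 and Tpm1 and lay 0.25 above it for Tpm2. Knockout replicate 1 was the nearest to the controls for 5 members. Some smooth muscle markers were also the highest among knockouts in replicate 5: Tagln was 12.41 there against 11.62 to 12.27 in the other knockouts, and Cnn1 was 12.24 against 11.72 to 12.05, and Myl9 14.98 against 14.49 to 14.83, although Myh11, at 5.13, was not the highest. The mean level of the 5 smooth muscle markers ran from 10.24 to 10.67 in controls and from 10.34 to 10.55 in knockouts, and 0 of 5 passed. Acta1, Tpm1 and Tpm2 can also be transcribed in smooth muscle or its precursors, and the part of such cells in these values was not tested.

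Other isoforms of the same families gave a mixed picture. None of 9 passed in limma, 5 had a negative and 4 a positive change, and the median was -0.022. An unadjusted limma p under 0.05 was found for 6, 2 lower and 4 higher, against 20.6% of all genes. Actb, cytoplasmic beta-actin, was the brightest and differed by -0.18 (SE 0.042, limma adjusted p = 0.0592). The other tropomyosins Tpm3 and Tpm4, named after their values were seen, had changes of 0.16 and 0.20 (limma adjusted p = 0.106 and 0.128), opposite in sign to the brightest Tpm1 probe set. The other actins Acta2, Actg1 and Actg2, named likewise, had changes of -0.13, -0.022 and 0.78 (limma adjusted p = 0.158, 0.804 and 0.143). The fast skeletal troponins Tnnt3, Tnni2 and Tnnc2, also named afterwards, had changes of 0.77, -0.18 and -0.86, with Tnnt3 and Tnnc2 at control means of 4.33 and 4.25, close to the array medians.

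Among 14 genes that cap thin filaments, set their length or turn over actin, 0 passed in limma. A negative change was found in 11, and the median was -0.16. Of these 14, 5 had an unadjusted limma p under 0.05, 4 lower and 1 higher, against 20.6% of all genes. Cfl2, the muscle cofilin that severs actin filaments, was the brightest, at -0.098 (SE 0.052). The smallest unadjusted p-values, by which the next genes were named after their values were seen, belonged to Xirp1 and Capza1. Xirp1, an actin-binding protein of intercalated discs, had -0.42 (SE 0.12, limma adjusted p = 0.0946) with groups that did not overlap. Capza1, a subunit of the capping protein of the barbed end, went the other way with 0.34 (SE 0.10, limma adjusted p = 0.115).

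The thick filament, with which thin filaments interact, had 7 measured genes, all with a negative change and a median of -0.23. Of these Myh7, the slow myosin heavy chain (-0.47, limma adjusted p = 0.0250), and Myl2, the ventricular regulatory light chain (-0.23, limma adjusted p = 0.0291), fell. Myl3, the brightest of those that did not pass the threshold, had -0.23 (SE 0.062, limma adjusted p = 0.0870). Of 9 genes of titin, Z-disc and M-band, Myom1, an M-band crosslinker, fell (-0.52, limma adjusted p = 0.0156), 8 had a negative change and the median was -0.37. Csrp3, a Z-disc protein, was the brightest that did not pass (-0.13, SE 0.093). Of 6 calcium handling genes, Atp2a2, the pump that returns calcium to the sarcoplasmic reticulum, fell (-0.29, limma adjusted p = 0.0246), all 6 had a negative change and the median was -0.26. Pln, the pump's inhibitor, had -0.11 (SE 0.085). With 1 array left out, the Myom1 call held in 10 of 10 fits, that of Myh7 in 4, of Myl2 in 3 and of Atp2a2 in 4, with limma adjusted p of up to 0.0617, 0.0680 and 0.0617 for the last 3. All 3 were lost without control replicate 2 or 3 or knockout replicate 2, 3 or 4. Myh7 and Myl2 were also lost without control replicate 1, Myl2 without knockout replicate 5 and Atp2a2 without control replicate 4. Over all genes 0.945% were called lower, as were 2.64% of the 1893 genes at least as bright as the dimmest member. Of the 263 genes at least as bright as Tnni3, among them Myh7, Myl2 and Atp2a2, 13 were called lower. A negative change was found in 39.5% of all genes and in 167 of these 263.

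Of 12 transcription factors and cofactors that act on sarcomere genes, Nkx2-5 (-0.78, limma adjusted p = 0.0108) and Mef2a (-0.34, limma adjusted p = 0.0333) fell. The Nkx2-5 call held in 10 of 10 fits with 1 array left out, and that of Mef2a in 2, without control replicate 5 or knockout replicate 1 (limma adjusted p up to 0.0768 in the others). The other 10 did not pass, 11 of the 12 had a negative change and the median was -0.16. Tbx20, the brightest that did not pass, had -0.14 (SE 0.078). Srf, which binds the CArG box marked above in Acta1 and Actc1, had -0.037 (SE 0.091, 95% interval -0.24 to 0.17). Its cofactor Myocd had -0.63 (SE 0.15, limma adjusted p = 0.0655). Tead1, of the family that binds the element with the marked CATTCC, had -0.47 (SE 0.11, limma adjusted p = 0.0550) with groups that did not overlap. Knockouts lay wholly below controls in 4 of the 12, Tead1 among them, and in 1.92% of all genes. The share called lower over all genes was 0.945%.

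**Figure D5:**
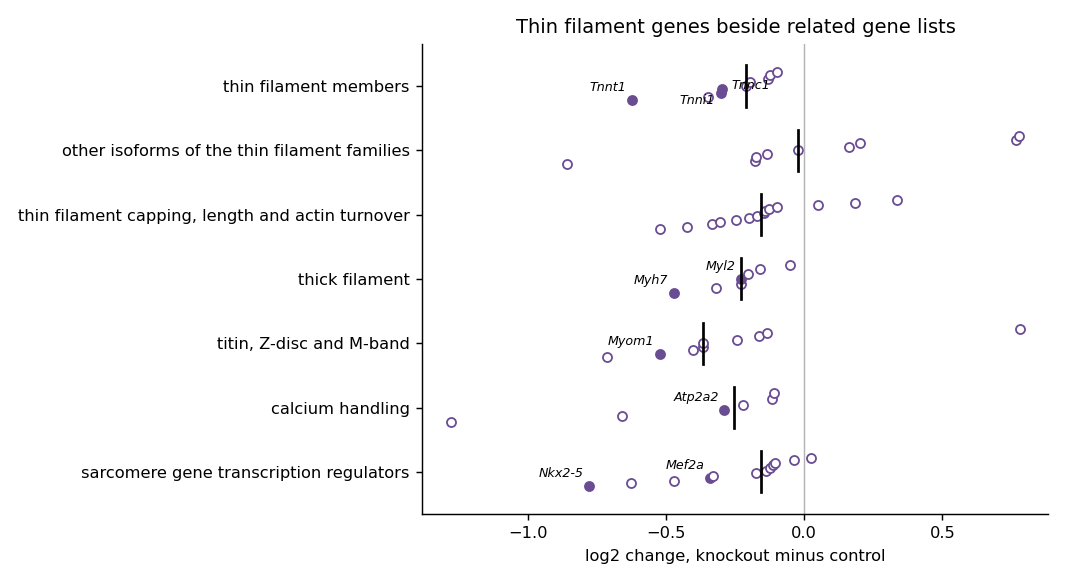
Log2 change, knockout minus control (x axis), of each thin filament gene and of the genes of 6 related lists; each point is a gene, filled and named where the adjusted limma p was under 0.05, and the vertical bar is the median. By the brightest probe set all 9 thin filament genes lie below 0 with a median of -0.21, Tpm1 and Tpm2 turn positive under other probe set choices (0.046 and 0.021 with the mean), and the other isoforms of the same families are centred near 0 (-0.022).

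Finally, genes with the most similar course over the 10 arrays were sought among 10907 genes above the 40th percentile of level, by the root mean square distance between deviations from each gene's own mean. For Tnni1, whose own deviations had a root mean square of 0.17, the nearest were Pttg1 (distance 0.029), Smdt1 (0.045) and Myl2 (0.052). For Tnni3, with 0.15, they were Idh2 (0.043), Myl3 (0.048) and Ndufa3 (0.052). Pttg1 encodes securin, Smdt1 a subunit of the mitochondrial calcium uniporter, Idh2 a mitochondrial isocitrate dehydrogenase and Ndufa3 a complex I subunit. Pttg1 and Smdt1 were lower past the threshold (log2 changes of -0.27 and -0.29, limma adjusted p = 0.0349 and 0.0406), and Idh2 and Ndufa3 did not pass. These distances describe 10 arrays of both genotypes.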

How the data were processed

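RNA of pooled hearts was measured on Affymetrix arrays. The authors deposited log2 signals per probe set, made with RMA and Partek per the submitters' processing notes; versions and the background option are not given in the sources used here, and no scan batch is labelled. RMA brings arrays to nearly 1 distribution, so changes of total RNA cannot be seen. Of 45101 probe sets, 34945 had 1 gene symbol in the platform annotation, which gave 18193 genes. Log2 changes were fitted across all genes with limma 3.58.1 in R 4.3.3 (lmFit, eBayes, genotype only, two-sided, 95% intervals), and separately across all probe sets, with Benjamini-Hochberg adjustment over each table and a threshold of 0.05. Single values were compared by exact two-sided permutation over the 252 splits of the arrays, with intervals from inverting that test. The number of arrays limits the precision. Scripts were tested on simulated data. Members, lists and tests were chosen with earlier results of these data known. Named genes are all members, up to 3 called genes and the brightest uncalled gene of each related list, the brightest skeletal and smooth muscle markers, and the 3 nearest patterns of Tnni1 and Tnni3. Myod1, Pax7, Myf5, Myog, Myh11, Srf, Myocd and Tead1 fall outside this rule and were named with their values known. Others are marked. Alternatives were the replicate block, quantile normalization, median centring, a level filter, other probe set rules, eBayes with trend and robust, array weights, a threshold of 0.01 and arrays left out. Some listed genes are not reported here. Plots used matplotlib 3.10.9 in Python 3.11.15.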

Additional observations from a re-analysis of the deposited data

Results flagged for a closer look

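Of 42 groups of 5 arrays checked for a value far from the rest (each group of the 17 probe sets and of the 4 isoform differences), 2 held one, and chance gives about 1 in 20. Tnni1 was 15.05 in control replicate 5 against 14.95 to 14.97 in the other controls. The third-brightest Tpm2 probe set was 9.22 in control replicate 3 against 8.72 to 8.81 in the others.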

How the results depend on the processing

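Main counts were 3 member genes, 3 member probe sets and 6 genes of the related lists called lower by limma. With the replicate number as a block all 3 counts were 0, with 6 of 18193 genes called lower in all and adjusted p of 0.0838 (Tnnc1), 0.0923 (Tnni1) and 0.103 (Tnnt1). The deviations of arrays with the same number correlated between -0.091 and 0.077, so the numbers were not taken to pair the arrays, and pairs of isoforms were not blocked, since 5 pairs cannot pass an exact test. At an adjusted p of 0.01 the 3 counts were 0 as well, and 8 members had an unadjusted limma p under 0.05. Without the arrays numbered 3 they were 0, 0 and 1, with 4 genes called lower in all, and the Tnnt2 minus Tnnt1 difference was 0.49, with an exact permutation p adjusted to 0.114, the smallest that a pair passing alone among 4 could reach with 4 arrays against 4. With 1 array left out, member genes called lower ran from 0 to 3, member probe sets from 0 to 3 and list genes from 2 to 11. Over all genes, the number called lower in these fits ran from 32 to 290 of 18193 (0.176% to 1.59%), against 0.945% in the main fit. Fewer arrays also lower the power. The list count was 12 with genes above the median level only, 10 with eBayes trend and robust and 13 with array weights. In these settings 3.12%, 0.945% and 1.73% of all tested genes were called lower. The member gene count was 2 with quantile normalization and with median centring, and 4 with array weights. Quantile normalization called 1.02% of all genes lower and median centring 0.594%. With 1 array left out, Tnnt2 minus Tnnt1 ran from 0.44 to 0.57, Tnni3 minus Tnni1 from 0.064 to 0.12, Actc1 minus Acta1 from 0.16 to 0.30 and Tpm1 minus Tpm2 from -0.14 to -0.056. With the mean of the probe sets the log2 changes of Tpm1 and Tpm2 were 0.046 and 0.021 and Tpm1 minus Tpm2 was 0.025, and with the most variable probe set these were 0.34, 0.23 and 0.11; the cause was not tested. Tnnt2 minus Tnnt1 was 0.42 and 0.11 under these choices, and the change of Tnnt2 was -0.52 with the most variable probe set. Across genes, the median change was 0.025, 0.0060 with quantile normalization and 0.041 with median centring.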
